A study of Mus musculus with 3 samples.

Results

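Transitional B cells are newly made B cells that have left the bone marrow for the spleen. They still carry CD93 (the AA4.1 antigen), and they keep transcripts of Vpreb3, a protein that binds immature immunoglobulin chains. As they mature they gain CD23 (Fcer2a), CD21 (Cr2) and IgD, and they settle as follicular or marginal zone B cells. Cells that recognize self antigen are removed or silenced at this stage, which is why it is followed in lupus models.

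The cells described here were chosen by a gate on their own counts of unique molecular identifiers (UMIs, each standing for 1 captured transcript). A barcode was kept with more than 200 and fewer than 3500 genes detected, under 15% mitochondrial UMIs and a top hashtag at least 3 times the second. A kept barcode was a member with 1 or more UMIs of Cd79a and of Cd93, Cd93 plus Vpreb3 of 2 or more, and 0 UMIs of Cd3e, Lyz2, Nkg7, Sdc1, Mki67, Dtx1 and Bhlhe41. In all, 190 of 54971 barcodes were members, out of 47453 kept barcodes and 40299 kept barcodes with Cd79a. They are called transitional-gate cells below. The values of these 10 genes therefore describe the gate and were not tested. Cd93 lies at chr2:148436640-148443563 and Vpreb3 at chr10:75943057-75949657 (GRCm38, the assembly also called mm10).

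Spleens of mice aged 12 to 14 weeks were depleted of T cells with CD3 microbeads, and live cells were sequenced as 3 libraries with 5′ chemistry. The C57BL/6 control library held male mice with sham minipumps and untreated female mice. The C57BL/6 Ang II library held male mice given angiotensin II, a hormone that raises blood pressure, at 490 ug/kg/min as labelled for 2 weeks from 10 weeks of age, with placebo or with 2-hydroxybenzylamine (2HOBA), a scavenger of reactive lipid aldehydes. The B6.SLE123 library held the congenic lupus strain, which carries the Sle1, Sle2 and Sle3 susceptibility intervals on the C57BL/6 background, given placebo or 2HOBA for 6 weeks from 7 weeks of age. The labels do not give the sex of the B6.SLE123 mice, which the authors describe as female. Cells of 3 mice were combined per condition, and each library held 6 hashtag populations, C0301 to C0306, that the labels do not tie to a condition. With 1 library per group, differences between libraries carry no test: their intervals are exact 95% intervals that cover counting error only, and strain, treatment, sex and library cannot be told apart.

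The libraries held 44146350 gene UMIs for control, 59043555 for Ang II and 63516694 for B6.SLE123, with a median of 1852, 2842 and 2082 UMIs per barcode. Transitional-gate cells had a median of 2238, 3060 and 2149 UMIs, against 1703, 2589 and 1745 in the B cells with 0 Cd93 UMIs that pass the same exclusions (Cd93-zero B cells, 27984 in all). Between libraries 415 to 496 barcodes were shared, and for the 3 pairs of libraries 2, 3 and 5 of these barcodes were members in 1 library, none in both.

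The gate narrowed quickly. Of the Cd79a-positive barcodes 476 had a Cd93 UMI, 303 of these reached a Cd93 plus Vpreb3 sum of 2, and the required zeros left 190. Among the 303, 45 had a UMI of Lyz2, 34 of Dtx1, 30 of Mki67 and 20 of Sdc1, with some cells holding several. The gate rested on few molecules: 167 members had a single Cd93 UMI and 57 had a Cd93 plus Vpreb3 sum of exactly 2, while 97 cells with 1 Cd93 UMI and no Vpreb3 fell just outside. Just inside the limit Cd24a stood at 166, 323 and 106 CPM (UMIs of a gene per 1000000 UMIs of the population) in control, Ang II and B6.SLE123, and just outside it at 388, 274 and 277 CPM. Free RNA can put a UMI into a cell that does not express the gene. Cd93 was detected in 1.20%, 1.62% and 0.805% of B cells with medians of 1807, 2792 and 2023 UMIs. In NK cells (2 or more Nkg7 UMIs and none of Cd79a, Cd3e or Lyz2), which should lack it, it was detected in 1 of 518 cells (0.193%), 0 of 351 cells (which allows a share of up to 0.855%) and 1 of 512 cells (0.195%), with medians of 1749.5, 2520 and 1371 UMIs. In B cells with Dtx1 the shares were 0.772%, 0.850% and 0.285%. In myeloid cells (5 or more Lyz2 UMIs and no Cd79a) they were 8.55%, 7.46% and 9.31%.

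Not every cell in the gate read as a transitional B cell, and this was seen after the values were known. In 7 cells Jchain, the joining chain of secreted antibody, reached 28 to 965 UMIs, and immunoglobulin genes made up 37.9% to 72.3% of their 3796 to 16324 UMIs. These cells with plasma cell transcripts were 1 of 93 members in Ang II and 6 of 28 members in B6.SLE123, where they carried 53.7% of the members' UMIs. None of the 69 control members was of this kind. A further 8 cells (1 control, 4 Ang II, 3 B6.SLE123) held transcripts of the precursor genes Rag1, Rag2, Dntt, Vpreb1, Vpreb2 or Igll1, which recombine antigen receptor genes or form the surrogate light chain. All 5 in C57BL/6 mice had Rag1, while the 3 in B6.SLE123 all came from hashtag population C0303 and held 2 to 22 Vpreb1 UMIs and 2 to 15 Igll1 UMIs. The other 175 members (68, 88 and 19) had immunoglobulin shares of 0.743% to 7.40% and at most 2 Jchain UMIs. Cd74, the MHC class II invariant chain, stood at 4926 CPM in the 7 cells, 6409 CPM in the 8 cells and 25425 CPM in the 175. The 8 cells were not alike: 1 Ang II cell held 60 of their 125 Cd74 UMIs and the control cell 48, and the others 0 to 11. Those with 60 and 48 had 1 and 2 Rag1 UMIs and were the only ones of the 8 with Ighd. Results that rest on these 15 cells are given with and without them.

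**Figure D1:**
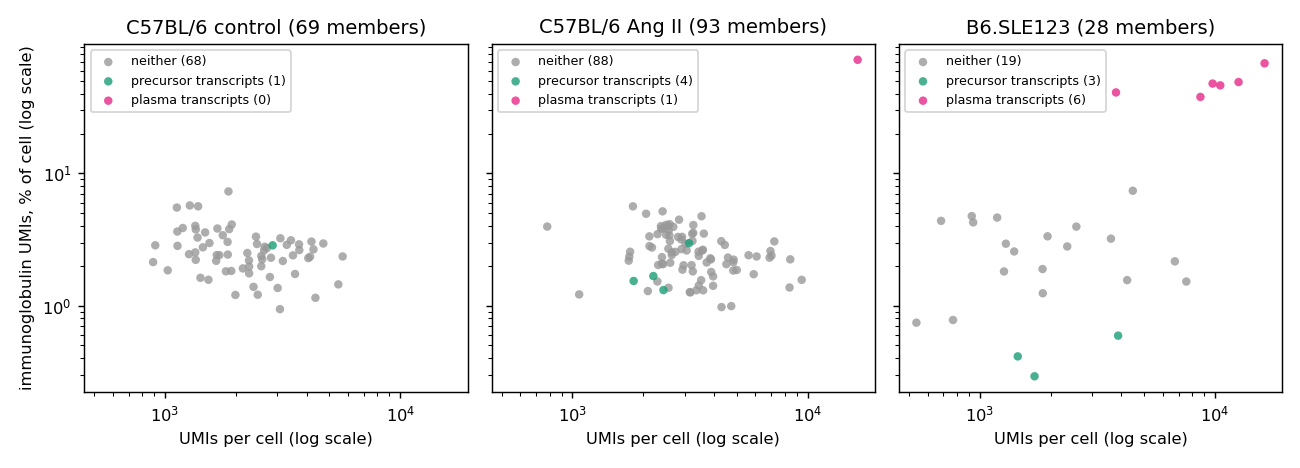
Each point is 1 of the 190 transitional-gate cells, in 1 panel per library, with its UMIs on the x axis (log scale) and the percent of them in immunoglobulin genes on the y axis (log scale), coloured by transcripts of neither kind, of precursor genes or of plasma cells. The 7 plasma-transcript cells stand above the rest at 37.9% or more, and 6 of them are in the B6.SLE123 panel.

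Transitional-gate cells were rare in every library and rarest in B6.SLE123. They were 69 of 15957 kept cells in control (0.432%, exact binomial 95% interval 0.337 to 0.547), 93 of 13982 in Ang II (0.665%, 0.537 to 0.814) and 28 of 17514 in B6.SLE123 (0.160%, 0.106 to 0.231). The B6.SLE123 share was 2.70-fold below control, a log2 ratio of -1.44 (-2.12 to -0.78), and their intervals did not overlap. By hashtag population the share ran from 0.214% to 0.683% in control (median 0.466%), from 0.377% to 0.952% in Ang II (median 0.644%) and from 0.0301% to 0.220% in B6.SLE123 (median 0.207%), so the highest B6.SLE123 population lay just above the lowest control one. Without the 7 plasma-transcript cells the B6.SLE123 share was 0.126% and the log2 ratio -1.78 (-2.55 to -1.07). The size of the ratio depended on the required zeros. They left 69 of 101 cells in control, 93 of 138 in Ang II and 28 of 64 in B6.SLE123. With no gene required at 0 the shares were 0.633%, 0.987% and 0.365%, so B6.SLE123 was still lowest but by a smaller ratio to control. With Cd93 alone and the zeros kept they were 0.714%, 0.915% and 0.257%.

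Because the gate needs detected molecules, each kept cell was also thinned to 1000 UMIs, which left out 1388, 898 and 2180 shallower cells. The shares became 0.213% in control (31 cells, 0.145 to 0.302), 0.176% in Ang II (23 cells, 0.111 to 0.264) and 0.0522% in B6.SLE123 (8 cells, 0.0225 to 0.103). B6.SLE123 stayed below control, at a log2 ratio of -2.03 (-3.36 to -0.87). The Ang II share, 1.54-fold above control as deposited (log2 ratio 0.62, 0.16 to 1.09), lay below control after thinning (log2 ratio -0.28, -1.12 to 0.55), so at equal depth no difference was detectable.

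**Figure D2:**
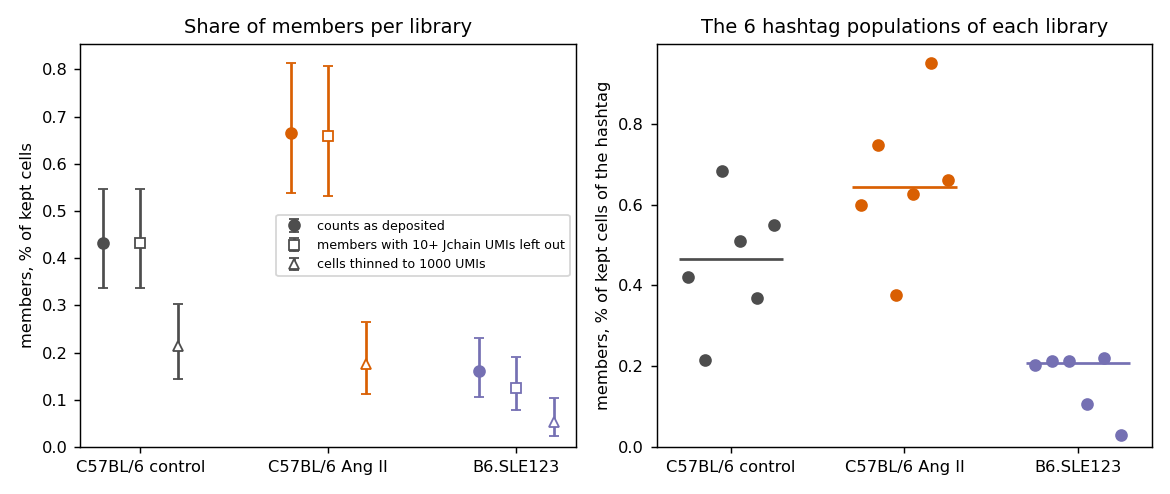
Left, transitional-gate cells as a percent of kept cells in each library with exact 95% binomial intervals, as deposited (circles), without members of 10 or more Jchain UMIs (squares) and thinned to 1000 UMIs per cell (triangles). Right, the same percent in the 6 hashtag populations of each library with their median as a line; B6.SLE123 is lowest in every version, and Ang II lies above control only before thinning.

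Against Cd93-zero B cells, transitional-gate cells had more transcript of Sox4, Akap12, Spib and Ighm, among the listed immature genes, and less of Cr2, Cd55 and Gpr183 of the follicular genes and of H2-Aa, H2-Eb1 and H2-Oa of the MHC class II genes. The 3 libraries served as replicates of this comparison within libraries, in an edgeR fit over 4 B cell populations summed per library, with the library as a block. Of 10947 genes tested, 64 were higher (0.585%) and 88 lower (0.804%) at an adjusted p under 0.05, and the median log2 fold change over all genes was -0.10. Without the 15 cells 68 were higher and 160 lower, of which 38 and 82 were among the first calls.

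Among 12 genes listed for immature and transitional B cells, 4 were higher and none lower (6 and none without the 15 cells), with a median log2 fold change of 0.49. Sox4 (chr13:28948919-28953713), a transcription factor of B cell progenitors, stood at 42.5, 50.8 and 60.9 CPM in the transitional-gate cells of control, Ang II and B6.SLE123, against 13.7, 11.4 and 7.30 CPM in Cd93-zero B cells. All 3 libraries were higher and the ranges did not overlap, although the gene was seen in only 5, 10 and 4 members. Its log2 fold change was 2.06 ± 0.40 (SE derived from the edgeR test, 3 libraries, adjusted p = 0.0241), and 1.83 ± 0.40 without the 15 cells. Akap12, a scaffold for protein kinase A, stood at 72.9, 117 and 43.5 CPM against 23.8, 22.8 and 10.7 CPM (log2 fold change 1.93 ± 0.34, adjusted p = 0.0163). Spib, an Ets family factor of B cells, stood at 419, 434 and 174 CPM against 235, 242 and 152 CPM (0.61 ± 0.13, adjusted p = 0.0366). Both were higher in every library, though the B6.SLE123 members' Spib lay below the C57BL/6 Cd93-zero levels.

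Ighm, the IgM heavy chain, was higher at 3705, 4661 and 7086 CPM against 2503, 1535 and 2373 CPM (log2 fold change 1.22 ± 0.24, adjusted p = 0.0251). Every transitional-gate value lay above every Cd93-zero value. Without the 15 cells its log2 fold change was 0.59 ± 0.09 (adjusted p = 0.000866). Cd24a, the heat stable antigen that is high on immature B cells, stood at 419, 484 and 183 CPM against 254, 275 and 169 CPM. It was higher in all 3 libraries but missed the threshold (0.55 ± 0.15, adjusted p = 0.0855) and passed it without the 15 cells (0.65 ± 0.13, adjusted p = 0.00471). Myb, a regulator of progenitors, had a log2 fold change of 2.83 ± 0.66 (adjusted p = 0.051), and 2.31 ± 0.71 without the 15 cells (adjusted p = 0.101).

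The precursor genes were held by few cells. Rag1 (log2 fold change 4.89 ± 0.61, adjusted p = 0.00726), Vpreb1 (4.93 ± 0.91, adjusted p = 0.0188) and Il7r, the interleukin 7 receptor chain of precursors (3.92 ± 0.80, adjusted p = 0.027), were the 3 of 9 precursor genes with enough counts to test, and all 3 were higher. A gene this rare passes the count filter only where it is high, so the count says nothing about the other 6. The Vpreb1 UMIs of members were all in B6.SLE123, at 252 CPM. Without the 15 cells Rag1 and Vpreb1 had no count left to test, as those cells were set apart by these genes, and Il7r was at 3.04 ± 0.95 (adjusted p = 0.115).

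Of 14 mature follicular genes 3 were lower and none higher (6 and none without the 15 cells), with a median of -0.66. Cr2 (chr1:195136811-195176716), the complement receptor CD21, stood at 237, 203 and 43.5 CPM in transitional-gate cells against 382, 353 and 199 CPM in Cd93-zero B cells. It was lower in each library (log2 fold change -1.13 ± 0.25, adjusted p = 0.0429), although across libraries the ranges overlapped, as they did for Cd55. Cd55, a membrane inhibitor of complement, stood at 383, 362 and 104 CPM against 472, 516 and 321 CPM (-0.75 ± 0.17, adjusted p = 0.0428). Gpr183, the oxysterol receptor EBI2 that guides B cells within follicles, stood at 85.0, 74.7 and 8.71 CPM against 115, 164 and 85.4 CPM (-1.16 ± 0.23, adjusted p = 0.0263). Ighd, the IgD heavy chain (-0.65 ± 0.15, adjusted p = 0.0509), just missed the threshold and passed it without the 15 cells, at adjusted p = 0.00853. Fcer2a did not pass in either form (-0.50 ± 0.20, adjusted p = 0.32), with 358, 404 and 34.8 CPM against 355, 468 and 155 CPM.

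The name transitional thus held in part. Of 4 genes taken as high in these cells, Sox4 and Ighm passed with all cells and Cd24a joined them without the 15 cells. Of 4 genes taken as low, Cr2 passed with all cells, Ighd joined it without the 15 cells, and Fcer2a and Ccr7 passed in neither.

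Of 10 MHC class II genes 3 were lower and none higher (5 and none without the 15 cells), with a median of -0.63. H2-Aa, the alpha chain of I-A, stood at 4075, 3785 and 1811 CPM against 5774, 5681 and 5861 CPM (log2 fold change -0.95 ± 0.19, adjusted p = 0.0251). Every transitional-gate value lay below every Cd93-zero value, and without the plasma-transcript cells the B6.SLE123 level was 3512 CPM. H2-Eb1 (-0.82 ± 0.16, adjusted p = 0.0263) and H2-Oa, part of the H2-O protein that restrains peptide loading (-0.90 ± 0.16, adjusted p = 0.0185), were lower as well, while Cd74 at -0.47 ± 0.13 did not pass (adjusted p = 0.117).

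Few survival and signalling genes passed the test. None of 21 B cell receptor signalling genes passed edgeR's test in either direction (median -0.02), with 4 at an unadjusted p under 0.05 and 1 called by DESeq2. Of 10 genes of the BAFF receptors and the alternative NF-kB pathway only Tnfrsf17, the plasma cell receptor BCMA, passed, and it had no UMIs in members once the plasma-transcript cells were left out. Tnfrsf13c, the BAFF receptor on which transitional cells depend, stood at 352, 466 and 139 CPM against 328, 390 and 240 CPM. Among 14 BCL2 family genes Bcl2a1b (-1.51 ± 0.27, adjusted p = 0.0158) and Bcl2a1d were lower. Bcl2a1d had no UMIs in the 190 members and 1902 in Cd93-zero B cells, which makes it at least 6.27-fold lower against a floor of 3 counts over the group. The Bcl2a1 genes are near-identical copies, so how reads were divided between them is uncertain.

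Among the other listed genes that passed, Zeb2, a repressor of transcription (0.85 ± 0.19, adjusted p = 0.0428), Egr1, an immediate early gene induced by antigen receptor signals (1.36 ± 0.30, adjusted p = 0.0405), and Iglc1, a lambda light chain constant gene (1.26 ± 0.15, adjusted p = 0.00197), were higher in all 3 libraries and also passed without the 15 cells. Fos was higher (1.37 ± 0.30, adjusted p = 0.04) and did not pass without them (0.56 ± 0.33, adjusted p = 0.529). Ly6a, which codes for Sca-1, was the 1 lower gene of 18 tested interferon response genes (298, 305 and 505 CPM against 701, 477 and 993 CPM, adjusted p = 0.0188, and -1.31 ± 0.18 without the 15 cells). None of 11 tested cell cycle genes passed in edgeR or DESeq2 (1 at an unadjusted p under 0.05), in cells that the gate had required to lack Mki67.

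Outside the lists, Atp1b1 (chr1:164437109-164458355), the beta subunit of the sodium pump, stood at 146, 98.7 and 174 CPM against 23.7, 22.8 and 17.7 CPM. The ranges were well apart in all 3 libraries (log2 fold change 2.43 ± 0.33, adjusted p = 0.00327, and 2.00 ± 0.34 without the 15 cells). Serinc5, a membrane lipid scramblase (2.28 ± 0.35, adjusted p = 0.00726), Dusp10, a MAP kinase phosphatase (2.12 ± 0.37, adjusted p = 0.0148), and Mgst1, a microsomal glutathione transferase (2.13 ± 0.39, adjusted p = 0.0188), were higher in every library. Without the 15 cells Mgst1 was at 1.67 ± 0.49 (adjusted p = 0.0783). Prdm1, the regulator of plasma cell differentiation (3.52 ± 0.59, adjusted p = 0.0123), had only 1, 7 and 6 UMIs in members. It was still called without the 15 cells (3.58 ± 0.73, adjusted p = 0.00643), as was Eaf2, a transcription elongation factor (3.20 ± 0.48, then 2.06 ± 0.45). The secretory genes Sec24d, Derl3 and Creb3l2 passed with all cells at log2 fold changes of 2.83, 2.74 and 2.56, and did not pass without the plasma-transcript cells at 1.22, 1.53 and 1.54. Among the lower genes were Gimap4, a GTPase of lymphocyte survival (-1.63 ± 0.17, adjusted p = 0.000846), Tuba1b, an alpha tubulin (-1.39 ± 0.18, adjusted p = 0.00314), and H2-Eb2 (-1.37 ± 0.19, adjusted p = 0.00481). Ribosomal protein genes made up 36 of the 88 lower calls and none of the higher calls. There were 88 such genes among those tested, so 36 of 88 were lower, against 0.804% of all genes tested.

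The number of calls depended on which library was left out. With 2 of the 3 libraries the 152 calls became 24 without control, 14 without Ang II and 275 without B6.SLE123. The libraries also differ in what else the members carried: the summed CPM of 5 plasma cell markers was 498, 3561 and 23016 in members, and 498, 556 and 657 once the plasma-transcript cells were left out.

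**Figure D3:**
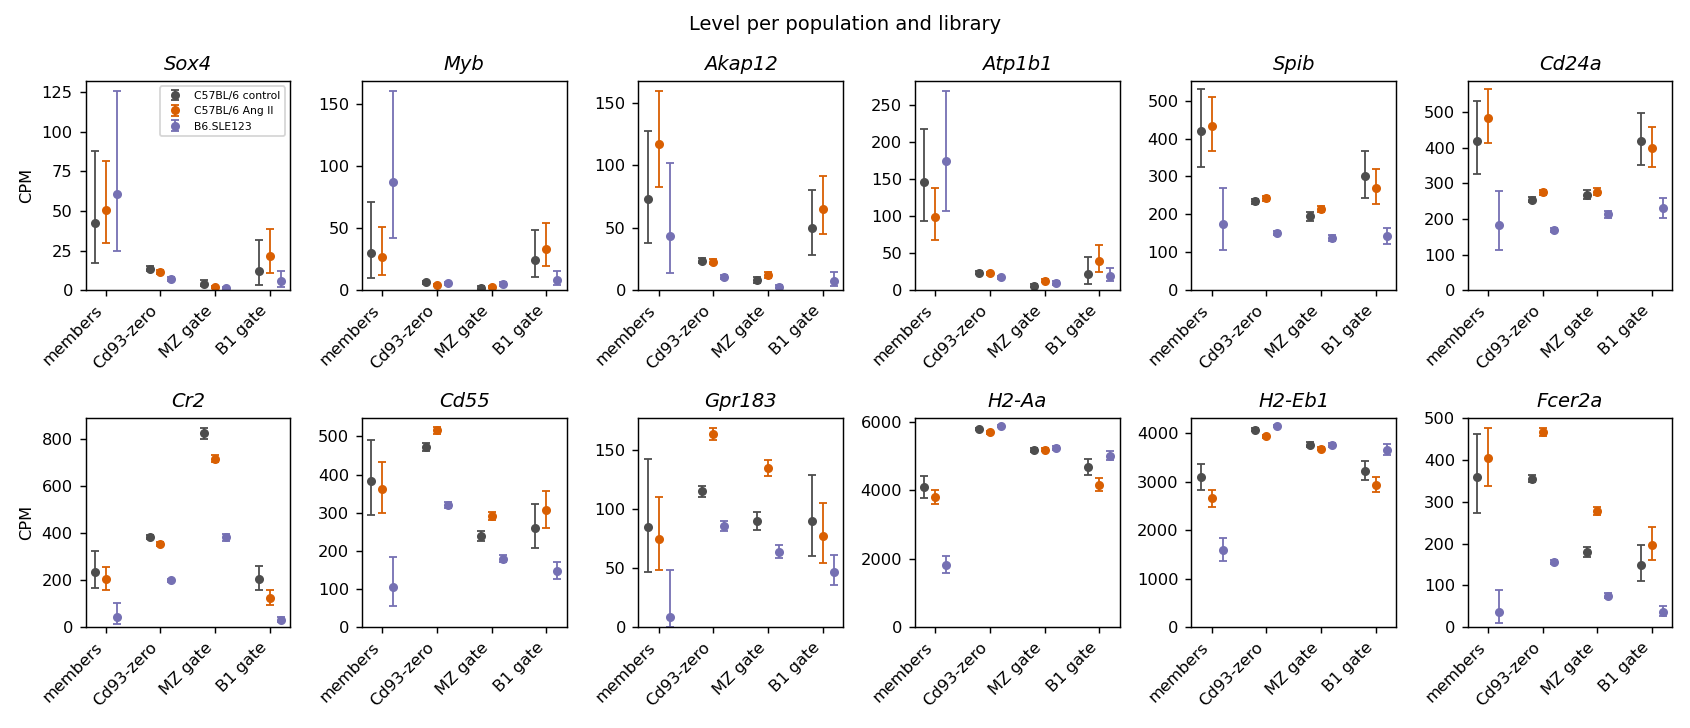
CPM of 12 genes in transitional-gate cells, Cd93-zero B cells, the marginal zone gate and the B1 gate, with 1 point per library and exact 95% Poisson intervals. Sox4, Akap12, Spib and Atp1b1 are higher in transitional-gate cells than in Cd93-zero B cells of every library, and Cr2, Cd55, Gpr183, H2-Aa and H2-Eb1 are lower.

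The marginal zone gate took 7131 B cells with Dtx1, a Notch target of marginal zone B cells that line the sinuses of the spleen. Of 10947 genes 171 were higher (1.56%) and 257 lower (2.35%) in transitional-gate cells. The lower calls included 75 of the 88 ribosomal protein genes tested, and the higher calls none. Of 12 marginal zone genes 10 were lower and none higher, with a median log2 fold change of -2.13. Members had to have 0 Dtx1 UMIs and this gate 1 or more, so a marginal zone gene split the groups in advance. Against Cd93-zero B cells, which also had 0 Dtx1 UMIs, 1 of the 12 was lower and none higher (median -0.49). Cr2 stood at 237, 203 and 43.5 CPM in transitional-gate cells against 827, 718 and 382 CPM in the marginal zone gate (-2.20 ± 0.25, adjusted p = 0.000454). Fcrl5, an Fc receptor-like protein of innate-like B cells, stood at 30.4, 8.97 and 8.71 CPM against 107, 107 and 129 CPM (-3.02 ± 0.50). Cd9 (-3.01), S1pr3, a receptor for sphingosine 1-phosphate (-2.81), and Cd1d1, which presents lipids (-1.54), were also lower, and all 3 passed without the 15 cells as well. Mzb1 (0.69) and Asb2 (-4.02) did not pass.

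In the other direction, 5 of 12 immature genes were higher than in the marginal zone gate and Marcks was lower (-1.24 ± 0.22, adjusted p = 0.00428). Sox4 had a log2 fold change of 4.23 ± 0.49 (adjusted p = 0.000454) and Akap12 one of 3.16 ± 0.38 (adjusted p = 0.000517). Lef1, a factor of the Wnt pathway used by early lymphocytes, was higher by 4.43 ± 0.90 (adjusted p = 0.0111). Bach2, a repressor of plasma cell differentiation, was higher by 1.19 ± 0.15 (adjusted p = 0.000545), and Klf2, which controls lymphocyte migration, by 1.03 ± 0.18 (adjusted p = 0.00341). Rag1 had 18 UMIs in members and none in the marginal zone gate. Without the 15 cells Sox4, Akap12, Lef1, Bach2 and Klf2 still passed, and 354 of the 428 calls were called again.

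The B1 gate took 508 B cells with Bhlhe41, a factor of self-renewing B1 cells. Members had to have 0 Bhlhe41 UMIs, so a B1 gene split these groups in advance. Of 10947 genes 30 were higher (0.274%) and 109 lower (0.996%) in transitional-gate cells. The lower calls included 31 of the 88 ribosomal protein genes tested, and the higher calls none. S100a6, a calcium-binding protein, stood at 24.3, 12.0 and 104 CPM against 325, 369 and 518 CPM (log2 fold change -3.56 ± 0.34, adjusted p = 8.71e-05). Apoe, the lipid carrier, stood at 78.9, 14.9 and 43.5 CPM against 473, 312 and 283 CPM (-3.36 ± 0.33, adjusted p = 9.04e-05). For both genes every transitional-gate value was below every B1 value. When members were not required to have 0 UMIs of the exclusion genes, S100a6 was at 0.028. Nfatc1 (-2.31 ± 0.22) and the scaffold gene Ahnak (-2.13 ± 0.21) were lower, and Bach2 (1.28 ± 0.17, adjusted p = 0.00239), the B lineage factor Ebf1 (0.64 ± 0.14, adjusted p = 0.0357) and Fcer2a (1.01 ± 0.22, adjusted p = 0.043) were higher. None of the 12 immature genes passed in edgeR against the B1 gate (4 at an unadjusted p under 0.05, 2 called by DESeq2, and Spib higher without the 15 cells), where Sox4 was at 1.80 ± 0.50 (adjusted p = 0.101). Atp1b1 was higher here too (2.10 ± 0.40, adjusted p = 0.0218). With B6.SLE123 left out the count rose from 139 to 271 genes, and without control or Ang II it fell to 14 and 19.

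**Figure D4:**
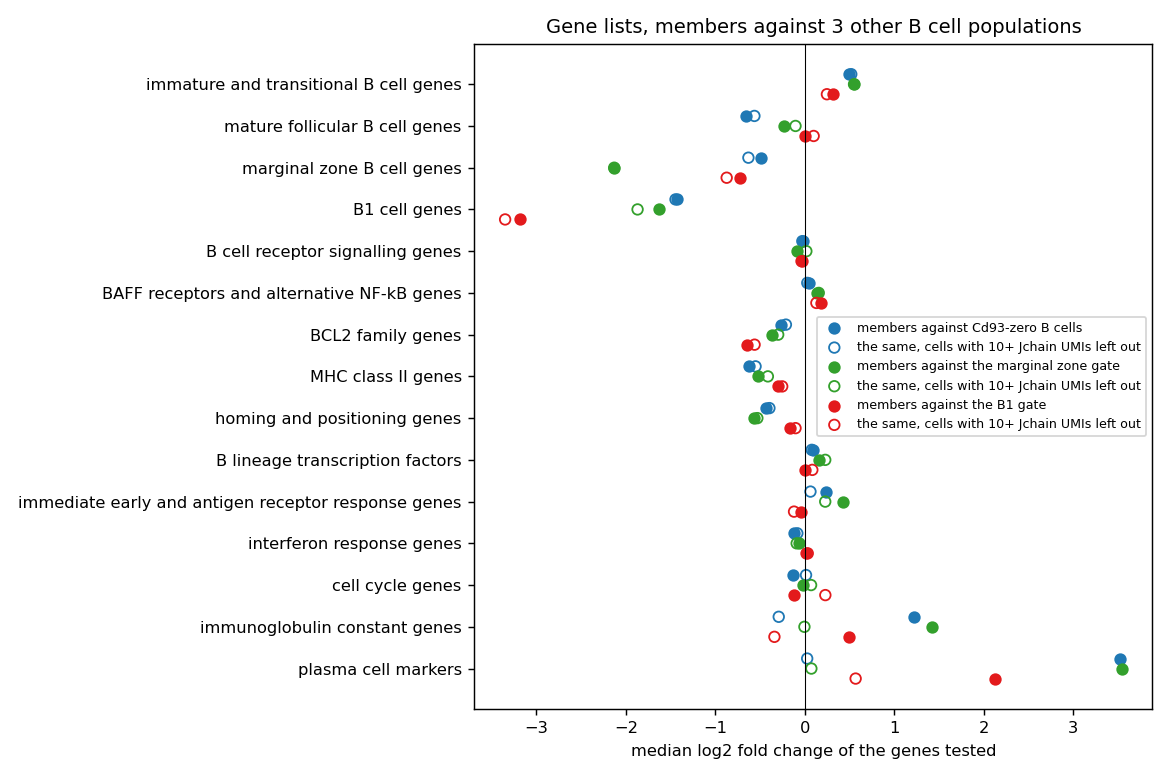
Median log2 fold change of 15 gene lists in transitional-gate cells against Cd93-zero B cells, the marginal zone gate and the B1 gate. Filled points use all cells and open points leave out cells with 10 or more Jchain UMIs; the marginal zone genes lie at -2.13 against the marginal zone gate, and the median of the immunoglobulin constant genes against Cd93-zero B cells moves from 1.22 to -0.29 between the filled and open points.

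Transitional B cells are commonly divided by CD23 into an early stage without it and a later stage with it. Members with an Fcer2a UMI numbered 30 in control, 47 in Ang II and 3 in B6.SLE123. Of those 3, 1 was a plasma-transcript cell that held 8674 of their 16762 UMIs. Detection followed depth: members without an Fcer2a UMI had a median of 1815, 2627 and 1854 UMIs, and those with one 2650.5, 3527 and 4475, so cells that express the gene can be among those without a UMI. Between members without and with Fcer2a, 1 of 1699 genes was higher (0.0589%) and 2 were lower (0.118%), and all 3 were variable segments of light chains. DESeq2 called 4 genes, and 99 genes had an unadjusted p under 0.05. Cr2 was at -1.49 (adjusted p = 0.173) and Cd24a at 0.90 (adjusted p = 0.364) in members without Fcer2a, neither past the threshold.

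In the space of all other genes, members lay near other members more often than Cd93-zero B cells did. With the gate and immunoglobulin genes left out, 2.03%, 4.14% and 3.04% of a member's 20 nearest B cells were members in control, Ang II and B6.SLE123. Any member neighbour was found for 22 of 69, 45 of 93 and 12 of 28 members. Over members other than the plasma-transcript cells the shares were 2.03%, 4.18% and 2.95%, with the precursor-transcript cells still in. Members were 0.499%, 0.779% and 0.193% of the B cells compared, and 0.412%, 0.601% and 0.129% of the neighbours of Cd93-zero B cells. Most neighbours of members were thus B cells outside the gate.

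Within transitional-gate cells, B6.SLE123 and control differed most in the genes of the plasma-transcript cells. Of 698 genes with 50 or more UMIs over both libraries, 61 were at least 2-fold higher (8.74%) and 164 at least 2-fold lower (23.5%) in B6.SLE123, with intervals beyond 0. The median log2 ratio over these genes was -0.55. Apart from immunoglobulin segments, Jchain (9.93), Slpi, a protease inhibitor (at least 9.72), Igha (8.85), Ighg1 (at least 8.22) and Ighg2c (at least 7.55) were the highest. Without the plasma-transcript cells 22 of 590 genes were higher and 25 lower, with a median of -0.07, and 29 of the first calls were called again.

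Among the genes still called, the interferon-inducible membrane genes Ifitm2 and Ifitm1 were higher, and Fcer2a and Siglecg were lower. Of 7 mature follicular genes with enough UMIs 1 was called lower and none higher, against 6 lower with all members. Of 3 such interferon response genes 1 was called higher and none lower, against none either way with all members. Ifitm2 (chr7:140954837-140955987) and Ifitm1 (chr7:140967221-140969825) code for proteins that restrict virus entry. In B6.SLE123 Ifitm2 had 200 UMIs in 18 of 22 cells and Ifitm1 had 164 UMIs in 19 of 22 cells, against none in the 69 control and the Ang II members. The log2 ratio to control was thus at least 7.69 for Ifitm2 and 7.40 for Ifitm1 against a floor of 3 counts. Cd93-zero B cells gave 8.28 and 7.21, so the difference was not confined to the gate. Ifi30, a lysosomal thiol reductase of antigen processing, was higher by 1.73 (1.43 to 2.03), against 1.47 in Cd93-zero B cells. Ifi27l2a, an interferon-induced gene, was higher by 1.29, against 0.41 in Cd93-zero B cells, and without the precursor-transcript cells its ratio was 0.94 (0.54 to 1.34), under the 2-fold limit.

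Fcer2a (chr8:3681737-3694175) had 2 UMIs in the 22 B6.SLE123 cells and 59 in the 69 control cells, a log2 ratio of -3.25 (-6.33 to -1.34), against -1.15 in Cd93-zero B cells. Siglecg, an inhibitory receptor of B cells, had 6 UMIs against 69 (-1.89, -3.39 to -0.70), against -1.33 in Cd93-zero B cells. Pax5, the B cell identity factor, was lower by a log2 ratio of -1.34, against -0.61. The Siglecg interval includes its Cd93-zero value. The Fcer2a interval ends short of it, and reached -1.11 when the precursor-transcript cells were left out as well. The 3 log2 ratios were then -3.03, -1.72 and -1.14. Of the immature genes 5 of 7 were called lower in B6.SLE123 with all members and none without the plasma-transcript cells, and the B cell receptor signalling genes went from 8 of 13 to 0 of 12.

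**Figure D5:**
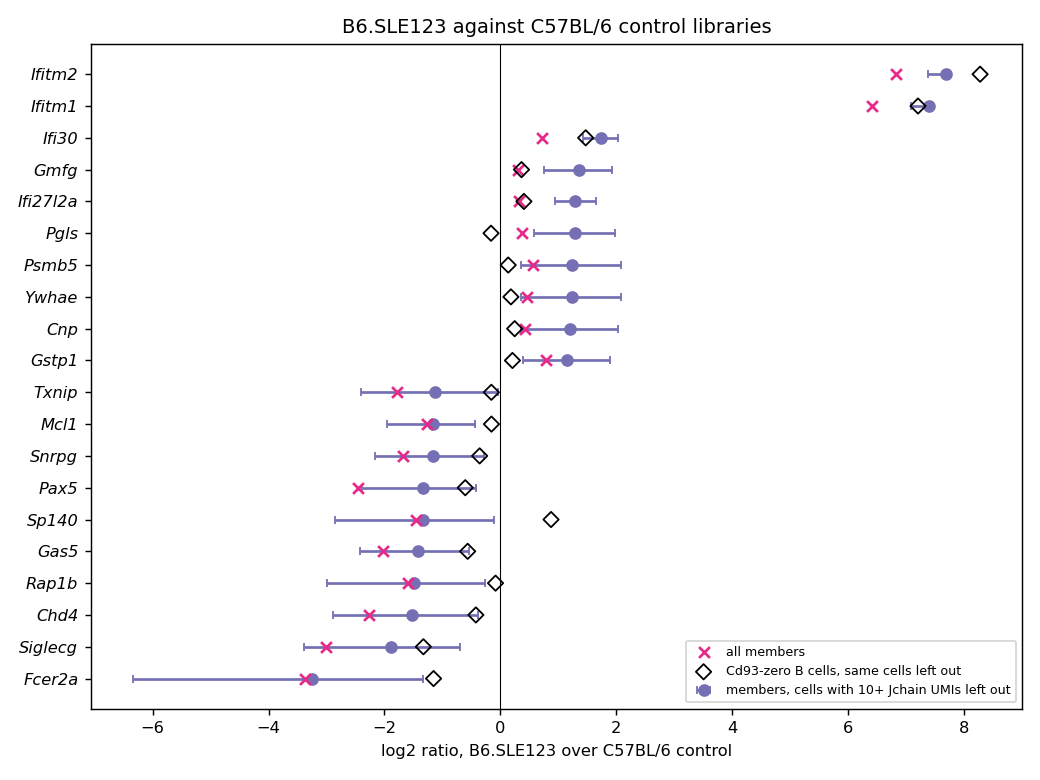
Log2 ratio of B6.SLE123 to control for 20 genes in transitional-gate cells without the plasma-transcript cells (circles with exact 95% intervals), in all members (crosses) and in Cd93-zero B cells (diamonds). Ifitm1 and Ifitm2 are lower bounds because control members had none; Fcer2a and Siglecg are the lowest.

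Ang II and control members differed in few genes. Of 1530 genes 37 were at least 2-fold higher (2.42%) and 19 at least 2-fold lower (1.24%) in Ang II, and 25 of the 56 were immunoglobulin segments. Lars2, the mitochondrial leucyl-tRNA synthetase, had 1593 UMIs against 255 without the plasma-transcript cell, a log2 ratio of 1.69 (1.50 to 1.89), and its ratio in Cd93-zero B cells was 0.81. Pdia6, a protein disulfide isomerase (1.53), and the histone gene Hist1h2ap (1.34) were also called without that cell. With all members Jchain (7.31) and Prg2 (at least 3.42) were the highest apart from immunoglobulin segments. Their 968 and 65 UMIs in Ang II fell to 3 and 1 without the plasma-transcript cell. Xbp1 was called with all members (1.65), and its ratio was 1.37 without that cell, with 40 of its 51 UMIs left. Xist, the RNA of the inactive X chromosome, had no UMIs in Ang II and 51 in control, where the library included female mice. None of the 8 immature, 10 follicular, 21 B cell receptor signalling, 9 MHC class II or 4 interferon response genes with enough UMIs was called at the 2-fold limit.

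Markers of other cell types were also summed in members and in Cd93-zero B cells, and their part in the results was not tested. The 7 T cell markers summed to 6.07, 2.99 and 0 CPM in members against 3.68, 6.87 and 5.27 CPM in Cd93-zero B cells. Of these, Cd3d, Cd3g, Cd4, Cd8a and Trac had no UMIs in the members of any library. The 7 myeloid markers summed to 553, 481 and 1358 CPM in members against 794, 727 and 853 CPM in Cd93-zero B cells, so they were lower in the C57BL/6 libraries and higher in B6.SLE123. The NK markers summed to 0, 2.99 and 43.5 CPM, against 8.67, 8.92 and 12.6 CPM. In B6.SLE123 members the sum was 5 UMIs of Gzma alone, and it was 0 without the plasma-transcript cells. The 4 plasmacytoid dendritic cell markers summed to 158, 135 and 139 CPM against 128, 111 and 120 CPM. In members their defining genes Siglech and Klk1 were at 0, and nearly all of the sum was Tcf4, which did not pass the test (0.19 ± 0.17). The 5 endothelial markers summed to 146, 152 and 17.4 CPM against 104, 103 and 71.9 CPM. In members Kdr, Plvap and Egfl7 were at 0 and nearly all of the sum was Pecam1, which did not pass (0.22 ± 0.24). The 5 erythroid markers summed to 60.7, 17.9 and 8.71 CPM against 35.7, 17.2 and 153 CPM.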

How the data were processed

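The authors combined cells of 3 mice per condition, hashed them and deposited Cell Ranger matrices of raw UMI counts per gene and hashtag for each of 3 libraries (header version 6.0.0, mm10 in the submitters' processing notes). The deposited counts were used without change. Here barcodes were filtered as the report states, counts were summed per population and library, and 4 populations were fitted with edgeR 4.0.16 in R 4.3.3 (TMM, filterByExpr, library as a block, quasi-likelihood test, Benjamini-Hochberg adjustment at 0.05, gate genes left out). Libraries are the replicates of that fit, and the block takes out each library's own level. The p-values therefore measure how differences between populations varied over 3 libraries of different mice. The spread was estimated over all populations in the fit. Each SE was derived from the fold change and the F statistic of that test. Library contrasts used CPM with exact conditional intervals, a minimum of 50 UMIs and a 2-fold limit, and no test. Doublets were limited by the hashtag ratio, and no caller was run, so doublets of cells with 1 hashtag remain. Named genes were the 12 highest and 12 lowest calls of 20 CPM or more that moved alike in all libraries, the 10 highest and 10 lowest library ratios, and genes of 24 lists. The members and lists were chosen with earlier results of these data known. Scripts were tested on simulated data. Positions come from the GRCm38 reference annotation, in which 32158 of 32285 features matched. Alternatives included DESeq2 1.42.0, other filters, thinning and leaving out libraries or hashtag populations. Those without plasma- or precursor-transcript cells were added after seeing the data. A few listed genes enter the counts but are not reported here by name.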

Additional observations from a re-analysis of the deposited data

Results flagged for a closer look

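For 11 listed genes the members stood on the opposite side of Cd93-zero B cells in B6.SLE123 from both C57BL/6 libraries, each beyond its counting interval. The difference between libraries was not tested. The log2 ratios in B6.SLE123 were -0.76 for Ly6d, -0.71 for Tmsb10, -0.25 for Cd79b, -0.89 for Ms4a1, -0.51 for Klf2, -0.51 for Plac8, -0.66 for Lyn, -0.51 for Mcl1, -1.15 for Pax5 and -0.51 for Ly6e. In control and Ang II these 10 genes lay between 0.11 for Tmsb10 and 0.87 for Ms4a1. Without the plasma-transcript cells the B6.SLE123 ratio was above 0 for 8 of them, with Cd79b at 0.53 and Ms4a1 at 0.16, and below 0 for Mcl1 (-0.41) and Pax5 (-0.08). The intervals of Ly6d, Ms4a1, Lyn, Mcl1 and Pax5 then included 0. S100a8, a neutrophil gene, went the other way, with 0.81 in B6.SLE123 against -3.96 in control and -0.71 in Ang II. Its B6.SLE123 ratio was 1.60 (0.7 to 2.4) without the plasma-transcript cells.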

How the results depend on the processing

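The 152 calls against Cd93-zero B cells became 355 with DESeq2, 491 without a count filter, 959 when no gene was required at 0 and 267 without cells of 10 or more Jchain UMIs, and ran from 14 to 275 with 1 library left out. The 428 calls against the marginal zone gate became 670, 772 and 1386 under the first 3 of these and 272 in cells of 1000 to 3000 UMIs, and ran from 59 (without Ang II) to 581 (without B6.SLE123). The 139 calls against the B1 gate became 314, 495, 401 and 30 in the same order, 343 without the Jchain cells and 289 without the 15 cells, and ran from 14 to 271. The 3 calls by Fcer2a became 58 without a filter, 7 with Cd93 plus Vpreb3 of 3 or more, 14 with no gene required at 0 and 10 without the 15 cells, and ran from 1 to 20. The cause was not tested. The 225 B6.SLE123 genes became 144 with TMM, 509 and 53 with minimums of 20 and 200 UMIs, 131 with the sum of 3, 28 in cells of 1000 to 3000 UMIs, 47 without the Jchain cells and 38 without the 15 cells, and ran from 124 (without C0305) to 252. The 56 Ang II genes became 170 and 9 with the 2 minimums, 32 with the sum of 3 and 26 in cells of 1000 to 3000 UMIs, and ran from 38 to 61.

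The member share in control, Ang II and B6.SLE123 was 0.288% and 0.458% with the sum of 3 in the first 2, 0.714%, 0.915% and 0.257% with Cd93 alone, 0.633%, 0.987% and 0.365% with no gene required at 0, and 0.213%, 0.176% and 0.0522% after thinning. Without 1 hashtag population it ran from 0.398% to 0.489%, 0.596% to 0.724% and 0.148% to 0.190%.

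Reversals were mostly of secreted antibody genes. Against Cd93-zero B cells Ighg1, Ighg2c and Igha were at -6.10, -0.34 and -7.81 in cells of 1000 to 3000 UMIs, -7.50, -0.83 and -2.35 without the Jchain cells, and -7.43, -7.30 and -2.28 without the 15 cells, with Igha from -2.09 to 4.78 with 1 library left out. Against the marginal zone gate Ighg1, Igha and Jchain were at -5.81, -7.19 and -1.28 in cells of 1000 to 3000 UMIs, Ighg1, Ighg2c and Igha at -6.59, -0.44 and -1.79 without the Jchain cells and -6.53, -6.91 and -1.73 without the 15 cells, Igha from -1.61 to 7.53 with 1 library left out, and Apoe at 0.97 with no gene required at 0. Against the B1 gate Igha was at -9.43, -3.76 and -3.67 under those 3 settings, from -2.51 to 4.72 with 1 library left out, and S100a6 at 0.028 with no gene required at 0. For B6.SLE123 over control Tmsb10 and Igkc were at 0.16 and -0.33 in cells of 1000 to 3000 UMIs, Igkc at -0.74 without the Jchain cells, and Mzb1, H2-Ob and Igkc at -0.39, 0.00058 and -0.55 without the 15 cells.

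For the genes named against Cd93-zero B cells, other settings kept 374 values on their side of the threshold and 70 in direction alone, and leaving out 1 library kept 48 and 85. The Fcer2a comparison in cells of 1000 to 3000 UMIs was not run because a library had no cells. No paired analysis was possible because each group is 1 library, so this holds for contrasts between libraries. Comparisons within libraries had the library as a block. With 28 members and 114876 UMIs in B6.SLE123, every library ratio there rests on few molecules.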
